A study of Mus musculus with 32 samples.

Results

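The human transgene *NFE2L2* and the mouse's own *Nfe2l2* (ENSMUSG00000015839) were followed across the RPE of mice labelled *rd1*, with the genes whose RNA moved with the amount of transgene. The members were taken by row name, the row NFE2L2 for the transgene and the Ensembl row for the mouse gene, and they are 2 of the 34453 rows in the count table. RPE RNA came from both eyes of 16 mice labelled *rd1*, 7 at P20 and 9 at P40, which gave 32 libraries. In each mouse the Nrf2 eye (labelled TRT) had received AAV-Best1-Nrf2 with AAV-Best1-GFP, and the other eye (labelled CTL, here the control eye) had received AAV-Best1-GFP alone. AAV-Best1-Nrf2 carries the human NRF2 cDNA behind the human *BEST1* promoter, which is active in the RPE. The vectors also differed in capsid, AAV8 for Nrf2 and 7M8 for GFP, so Nrf2 eyes had an AAV8 vector that control eyes did not. By the labels all mice are *rd1*, a line with the FVB/N background and loss of *Pde6b* function in which rods die in control eyes too, and no eye without a vector was among the libraries. The methods, however, describe fewer *rd1* pairs at both ages than the labels and also pairs of CD1 mice, which do not lose their rods this way, at P40. Which P40 mice would be CD1 could not be worked out, so age and strain cannot be told apart in any comparison of P20 with P40. Dose slopes that use P40 eyes also compare different mice, and they hold no term for strain. The comparisons ask how much transgene RNA each eye held, whether *Nfe2l2* changed beside it, and how the response of other genes scaled with the transgene.

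NRF2, the protein made from *NFE2L2*, is a basic leucine zipper transcription factor of the cap'n'collar (CNC) family that pairs with small Maf proteins and binds antioxidant response elements. In unstressed cells KEAP1 holds it and passes it to a CUL3 ubiquitin ligase, and oxidants or electrophiles that modify KEAP1 let NRF2 accumulate. Its targets make glutathione, reduce quinones and peroxides, supply NADPH, and export conjugates, and the RPE depends on this system because it lives with light, high oxygen, and ingested photoreceptor membranes.

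Because regulation of these genes runs through short DNA elements, the mouse sequences that bear on the comparisons are given first. *Nfe2l2* lies on the minus strand at chr2:75675513-75704641 (GRCm38, GENCODE M21), and its full transcript has 5 exons and 2475 bases. The 250 bases before its RefSeq start, chr2:75704664-75704913 on the minus strand of GRCm38.p6, hold 1 match to the core element TGACNNNGC, shown in capitals.
Nfe2l2: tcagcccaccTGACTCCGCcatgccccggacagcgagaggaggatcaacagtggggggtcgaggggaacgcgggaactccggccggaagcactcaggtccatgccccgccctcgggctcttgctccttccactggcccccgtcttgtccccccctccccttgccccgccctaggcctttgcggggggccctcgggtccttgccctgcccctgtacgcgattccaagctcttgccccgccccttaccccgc

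TGACNNNGC was searched on both strands of RefSeq promoter windows that run from 250 bases before to 50 bases after a start site. It was found in 12.4% of all 32851 windows and in at least 1 window of 14% of 27025 genes. Of 47 known NRF2 target genes, listed with earlier results of these data known, 38 had a window and 13 of them held the element (34.2%). Of the 48 genes that rose with transgene dose over the 16 Nrf2 eyes, 39 had a window and 13 held it (33.3%). A match of this short element is a description of the letters and not of binding. The 25-base stretches around it are shown for 5 NRF2 targets and 2 further genes called with dose (Acox2, Rom1), each read on the strand that carries the element.
Gclm, chr3:122245415-122245439, minus strand: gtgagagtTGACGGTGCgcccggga
Srxn1, chr2:152105544-152105568, minus strand: tctcactcTGACCTAGCtgcccact
Txnrd1, chr10:82859106-82859130, minus strand: tgtcagaaTGACAAAGCaaaaatcc
Prdx1, chr4:116685458-116685482, minus strand: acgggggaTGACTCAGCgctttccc
Me1, chr9:86695904-86695928, minus strand: tgccgccgTGACTCAGCgcttctcg
Acox2, chr14:8259016-8259040, plus strand: ctctggcaTGACTCAGCttccaggc
Rom1, chr19:8929399-8929423, plus strand: ccatttcgTGACCCCGCcctgccct
*Prdx1*, *Me1* and *Acox2* carry the same 9 letters, TGACTCAGC, and the other stretches differ from it in the 3 free bases. *Nqo1*, an established target, had no match within its own promoter window, which says only that these letters are absent from that window.

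The libraries held 16548332 to 50542797 counts. *NFE2L2* gave 28794 to 436488 counts in the Nrf2 eyes and *Nfe2l2* gave 1644 to 4752 counts in all eyes, so counting error was small beside the spread between mice. RPE markers were present throughout, with a summed level of 5596 to 72320 CPM over 12 genes, and photoreceptor markers were also read in every group. 2 libraries stood apart from their labels. The library labelled P20 control of mouse 3 had 1098 CPM of transgene and the library labelled P20 Nrf2 of mouse 4 had 1082 CPM, and they were the most alike of all 496 pairs of libraries, with a squared difference 8.18 times that of sampling noise against 48.8 times for the next pair. They were kept as separate samples, as labelled. Excess over counting noise does not show separate origin, since repeat libraries of the same or mixed RNA also exceed it. Outside the NRF2 targets the 2 libraries were also close in summed muscle markers, at 237.9 and 232.3 CPM, each the highest of its P20 group. Summed fibroblast markers were at 658.3 and 642.6 CPM, while small Maf and coactivator genes differed more, at 172.4 and 147.7 CPM. Whether a lower dose, a mix-up or a mix of RNA or libraries lies behind this likeness was not tested. Results include these libraries unless stated, and many on the transgene, *Nfe2l2* and the NRF2 targets are also given without them.

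*NFE2L2 in Nrf2 and control eyes.* The transgene was abundant in every Nrf2 eye and varied between control eyes by several orders of magnitude. At P20 the Nrf2 eyes of mice 1 to 7 held 9506, 5380, 7511, 1082, 4810, 5430 and 8708 CPM (6061 ± 2834, SD, n = 7). At P40 the Nrf2 eyes of mice 1 to 9 held 4156, 6140, 9144, 10440, 7024, 5117, 9068, 3205 and 7047 CPM (6815 ± 2428, SD, n = 9). 15 of the 16 Nrf2 eyes thus lay between 3205 and 10440 CPM and only the eye of P20 mouse 4 lay lower. The transgene made up 0.118% to 0.974% of all counts in the Nrf2 eyes.

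Transgene counts were also present in 15 of 16 control eyes, although these had received no Nrf2 vector according to the labels. At P20 the control eyes of mice 1 to 7 held 0.924, 47.2, 1098, 66.3, 154.3, 1.17 and 7.17 CPM, with a median of 47.2 CPM. At P40 the control eyes of mice 1 to 9 held 0.383, 0, 0.676, 0.217, 49.1, 1.46, 0.336, 99.2 and 0.0659 CPM, with a median of 0.383 CPM. The control eye of P40 mouse 2 had no transgene count among 34586699, which allows up to 0.0850 CPM at 3 counts, and that of P40 mouse 9 had 3 counts. Most P40 control eyes were therefore near the lowest level that can be read, whereas 4 of 7 at P20 were above 40 CPM. The source of these counts was not tested.

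Within a mouse the Nrf2 eye was higher in all 16 pairs, and the ratio differed widely. At P20 it was 10290, 114, 6.84, 16.3, 31.2, 4662 and 1214 in mice 1 to 7. At P40 it was 10850, 13530, 48150, 143.2, 3497, 27000 and 32.3 in mice 1, 3, 4, 5, 6, 7 and 8. It was at least 72230 in P40 mouse 2, from the floor of 3 counts, and no ratio is given for P40 mouse 9, whose control eye held just 3 counts. The spread of the ratios was set mainly by the control eyes, because the Nrf2 eyes of 15 mice were within a narrow range. In the paired edgeR fit the log2 difference of *NFE2L2* at P40 was 13.28 (SE 1.70, adjusted p = 0.000672). Over 13 alternatives the P40 value ran from 8.60 to 13.87, and the call held in each. At P20 the estimate was 7.36 (SE 1.74), with an adjusted p of 0.0601 by edgeR's quasi-likelihood test, and it passed the threshold without mouse 4 (8.37, adjusted p = 0.0277) and without mice 3 and 4 (9.60, adjusted p = 0.0337). It also passed at P20 in edgeR without the block for mouse (4.91, adjusted p = 0.0400) and with DESeq2 (adjusted p = 3.89e-14). In all, 2.93% of 16303 genes were called higher in Nrf2 eyes at P20 and 3.33% of 16686 at P40, at an adjusted p under 0.05. The fitted difference between ages was 5.87 (SE 2.42), with an adjusted p of 0.9995 by edgeR. Without P20 mice 3 and 4 this difference was 3.57 (SE 2.26, adjusted p = 0.9998 by edgeR).

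**Figure D1:**
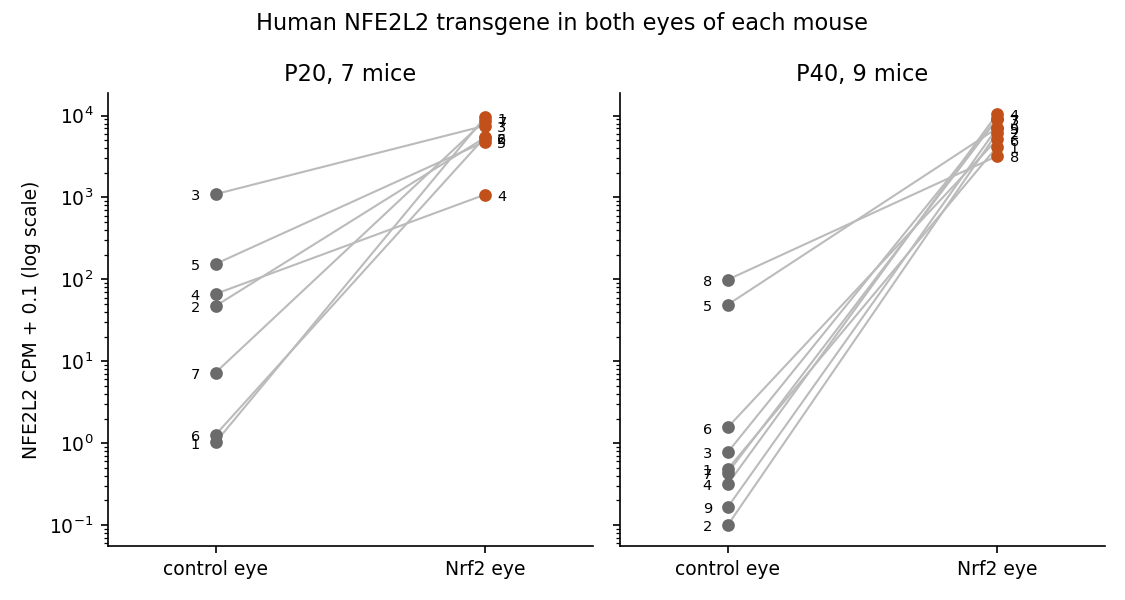
CPM of human *NFE2L2* (plus 0.1, log axis) in the control eye (grey) and the Nrf2 eye (orange) of each mouse at P20 and P40, with a line for each mouse and the mouse number beside the points. All Nrf2 eyes but that of P20 mouse 4 lie between 3205 and 10440 CPM, and the control eyes run from 0 to 1098 CPM.

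The dose in Nrf2 eyes was not detectably different between P20 and P40. The mean log2 CPM was 12.33 ± 1.06 (SD, n = 7) at P20 and 12.64 ± 0.56 (SD, n = 9) at P40, a difference of 0.32 (two-sided exact permutation p = 0.513). Without P20 mouse 4 the difference was -0.06 (two-sided exact permutation p = 0.838). The edgeR estimate of the age difference in Nrf2 eyes was 0.19 (SE 0.36, 95% CI -0.56 to 0.94, adjusted p = 0.766) and became -0.02 without P20 mouse 4, so the interval still allows a change of up to nearly a doubling.

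*Mouse Nfe2l2.* The mouse gene changed little beside its human counterpart. At P20 it lay at 72.7, 84.6 and 97.8 CPM (lowest, median and highest) in Nrf2 eyes, with a mean of 85.0 ± 7.57 (SD, n = 7), and at 50.4, 72.4 and 89.7 CPM in control eyes, with a mean of 69.4 ± 12.8 (SD, n = 7). At P40 it lay at 65.9, 92.8 and 185.8 CPM in Nrf2 eyes, with a mean of 103.6 ± 35.9 (SD, n = 9), and at 80.4, 87.9 and 131.6 CPM in control eyes, with a mean of 92.8 ± 15.6 (SD, n = 9). The ranges of Nrf2 and control eyes overlapped at both ages.

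At P20 6 of 7 mice had more *Nfe2l2* in the Nrf2 eye, by a mean of 0.31 on the log2 scale (SD 0.21, range -0.02 to 0.54). A two-sided exact sign-flip permutation test gave p = 0.0313, where the smallest p that 7 pairs allow is 0.0156. Across all genes the paired edgeR estimate was 0.28 (SE 0.10, 95% CI 0.04 to 0.51) with an adjusted p of 0.203, so *Nfe2l2* was not among the genes called higher. Without mice 3 and 4 the mean was 0.29, higher in 4 of 5 mice (exact permutation p = 0.125, the smallest possible being 0.0625).

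At P40 5 of 9 mice had more *Nfe2l2* in the Nrf2 eye, by a mean of 0.11 (SD 0.43), and a two-sided exact sign-flip permutation test gave p = 0.563. The edgeR estimate was 0.07 (SE 0.16, 95% CI -0.28 to 0.41, adjusted p = 0.947), an interval that leaves out rises beyond 0.41. This mean rested on mouse 3, whose Nrf2 eye held 185.8 CPM against 87.9 CPM in its control eye, and without that mouse the edgeR estimate was -0.01. The Nrf2 effect on *Nfe2l2* differed between ages by -0.20 (SE 0.19, 95% CI -0.61 to 0.20, adjusted p = 0.9995 with edgeR), so no difference between ages was detectable.

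Because human and mouse transcripts are alike in sequence, the rise of *Nfe2l2* in CPM was set beside the rise of the transgene in the same mouse. It came to -0.336% to 2.19% of the transgene's rise and was highest in P20 mouse 4, the mouse with the least transgene. How many reads of one gene were counted for the other was not tested, and levels of the human and mouse rows were not compared with each other because no length was at hand for the transgene.

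**Figure D2:**
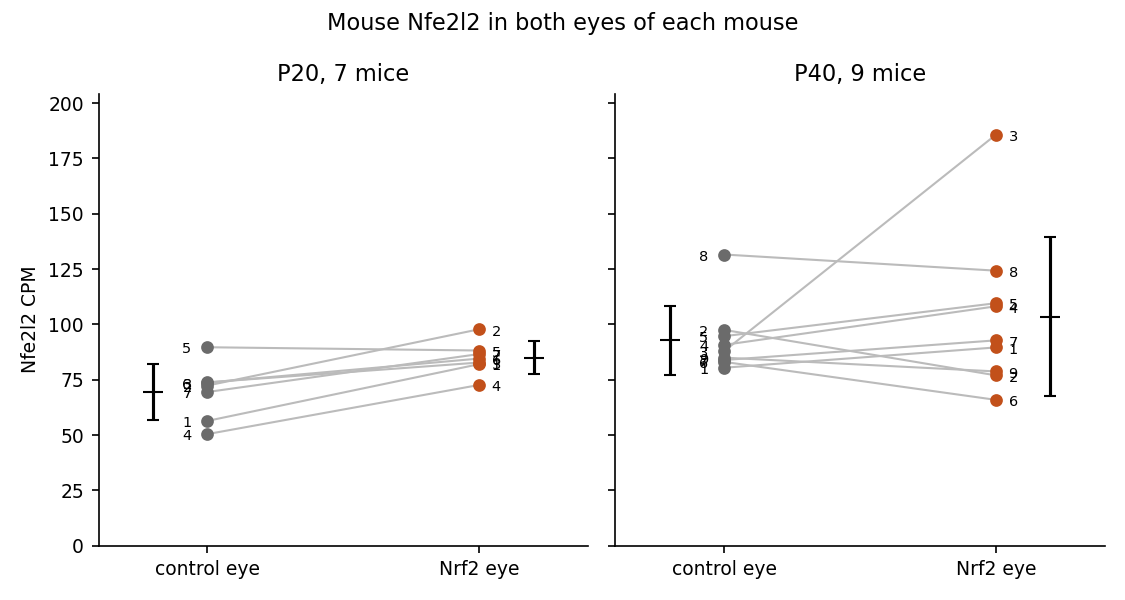
CPM of mouse *Nfe2l2* in the control eye (grey) and the Nrf2 eye (orange) of each mouse, on a linear axis from 0, with mean and SD as black bars beside the points. At P20 6 of 7 lines rise, and at P40 the lines go both ways, with the Nrf2 eye of mouse 3 highest at 185.8 CPM.

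With age, *Nfe2l2* in control eyes was 0.46 (log2) higher at P40 than at P20 (SE 0.14, edgeR adjusted p = 0.0438), where 8.34% of 16832 genes were called higher. The direction held in every set that left out 1 eye, with values of 0.38 to 0.52, but the call held in only 4 of these 16 sets, which left out the control eye of P40 mouse 1, 4, 6 or 8. Without P20 mice 3 and 4 it was 0.38 (adjusted p = 0.147 with edgeR). In Nrf2 eyes the corresponding difference was 0.32 (SE 0.19, 95% CI -0.08 to 0.72, adjusted p = 0.291), and 0.27 without P20 mice 3 and 4. Different mice were compared at each age, so age and mouse cannot be told apart beyond the spread between mice. The sample titles also form a separate series at each age (M at P20, A at P40), which cannot be told apart from age. Fewer cells of a type and less RNA per cell cannot be told apart in bulk RNA.

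*Nfe2l2 against transgene dose.* Across Nrf2 eyes *Nfe2l2* did not follow the transgene to a detectable degree. Over the 16 eyes, centred within age, Pearson's r was 0.235 (permutation p = 0.256) and Spearman's rho was 0.215 (permutation p = 0.403). Within P20 r was 0.575 (exact permutation p = 0.232) with rho at -0.107 (exact permutation p = 0.840), and within P40 r was 0.228 (exact permutation p = 0.558) with rho at 0.267 (exact permutation p = 0.493). Without the 2 eyes farthest from the median dose, r was 0.389 over the remaining eyes of both ages, -0.420 at P20 and 0.692 at P40, so the sign at P20 rested on those eyes. These were 3 of 9 relations computed, the others being *Best1* and the mean of the RPE markers against the transgene, and the lowest adjusted p over the 9 was 0.717 for r and 0.693 for rho.

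As a slope, the log2 change of *Nfe2l2* for each doubling of the transgene was 0.11 (SE 0.12, 95% CI -0.15 to 0.37, adjusted p = 0.9003 with edgeR). Over the 15 eyes without P20 mouse 4 the slope was again 0.11 (95% CI -0.31 to 0.54). It was 0.07 at P20 and 0.15 at P40 with all eyes, and it turned to -0.17 without P20 mouse 4 and to -0.10 without P40 mouse 3. A proportional response, which would be a slope of 1, lay outside the interval over both 16 and 15 eyes.

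*Best1*, the mouse gene whose human promoter drives the vector, is a chloride channel of the RPE and was itself low. It lay at 0.274, 2.01 and 2.59 CPM (lowest, median and highest) in P20 Nrf2 eyes and at 2.28, 2.87 and 4.18 CPM in P40 Nrf2 eyes, against 0.798, 1.53 and 3.37 CPM and 0.970, 1.38 and 2.53 CPM in the control eyes. Its slope on the transgene was 0.21 (SE 0.26, 95% CI -0.34 to 0.75, adjusted p = 0.918 with edgeR) over 16 eyes and -0.03 over 15 eyes. Between eyes it differed by -0.23 at P20 (adjusted p = 0.806) and by 0.95 at P40 (SE 0.26, with 0.0624 as adjusted p). All 9 P40 mice had more in the Nrf2 eye, but the edgeR threshold was passed at neither age. At P40 it was passed in 3 of 14 alternatives, with DESeq2, with a stricter count filter and without the block for mouse, at adjusted p of 0.000671 to 0.0355. Against the transgene over 16 eyes r was 0.224 (permutation p = 0.488) for *Best1* and 0.228 (permutation p = 0.443) for the mean log2 CPM of the RPE markers, so no relation of either to dose was detectable.

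*Targets in Nrf2 against control eyes.* Most of the 47 NRF2 targets were higher in Nrf2 eyes at both ages. At P20 36 of the 46 tested were called higher, with a median difference of 1.93 on the log2 scale against -0.04 over all genes, and none was called lower. At P40 36 of 47 were called higher, with a median of 1.97 against -0.03 over all genes. Without P20 mice 3 and 4 the P20 count was 37 of 47 with a median of 2.15. These counts stand beside 2.93% and 3.33% of all genes. The target list was chosen with earlier results of these data known. These counts and the slopes of the targets below therefore describe the list and are not independent support.

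The enzymes of glutathione synthesis rose strongly. *Gclc*, the catalytic subunit of glutamate-cysteine ligase, lay at 538.9, 2385 and 3858 CPM (lowest, median and highest) in P20 Nrf2 eyes and at 69.3, 90.99 and 544.1 CPM in P20 control eyes. At P40 it lay at 459.5, 2800 and 3523 CPM in Nrf2 eyes and at 30.1, 67.9 and 90.3 CPM in control eyes. Groups overlapped only at P20, through the libraries with 1082 and 1098 CPM of transgene, and the edgeR differences were 4.16 (adjusted p = 0.00921) and 4.69 (adjusted p = 8.18e-05).

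The other targets followed from the rule for named genes. *Gclm*, the modifier subunit of the same ligase, rose by 2.99 at P20 and 3.41 at P40, and *Slc7a11*, the cystine importer, by 2.68 and 3.55. *Srxn1*, which repairs oxidized peroxiredoxins, rose by 4.68 and 5.53, and *Txnrd1*, the cytosolic thioredoxin reductase, by 3.53 and 3.98. *Nqo1*, a quinone reductase, rose by 2.05 and 2.00, and *Hmox1*, which breaks down heme, by 4.30 and 4.48. Each of these was higher in the Nrf2 eye of 16 of 16 mice and passed the edgeR test at both ages and in every set that left out 1 mouse, with adjusted p of 0.0102 or less at P20 and 0.000145 or less at P40 over all mice. Without P20 mice 3 and 4 the P20 differences were 4.82 for *Gclc*, 3.41 for *Gclm*, 3.10 for *Slc7a11*, 5.42 for *Srxn1*, 4.01 for *Txnrd1*, 2.35 for *Nqo1* and 5.04 for *Hmox1*, at adjusted p of 0.00292 to 0.00360 with edgeR.

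*How the targets scaled with the transgene.* A slope of 1 means that a gene doubles when the transgene doubles, and a slope of 0 that it does not move. Over the 16 Nrf2 eyes 42 of the 47 targets had a slope above 0, with a median of 0.54 against 0.01 over all genes, and 38 of them had p under 0.05 before adjustment. After adjustment over all 16744 genes 5 were called higher with edgeR, where 0.287% of all genes were called higher. These were *Gclm*, *Nqo1*, *Gstm1*, *Ephx1* (a microsomal epoxide hydrolase) and *Cbr3* (a carbonyl reductase). With DESeq2 32 targets were called higher. With the difference between the paired eyes in place of the Nrf2 eye alone (replicate block, limma) none was, with 28 at an unadjusted p under 0.05 and a median of 0.52. For 30 of the 47 the 95% interval of the slope lay below 1, and for 8 it included 0.

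The target calls over the 16 eyes fell from 5 to 0 without any one of P20 mice 1, 3, 4, 6 and 7 or P40 mouse 4, with no filter on low counts, and on a linear dose scale. The median slope stayed at 0.52 to 0.55 without any one of these eyes. Over the 15 eyes without P20 mouse 4 41 of the 47 targets still had a slope above 0, with a median of 0.55, 22 of them had p under 0.05 before adjustment, and the interval lay below 1 for 24 of the 47. *Tkt* and *Aldh3a1*, an aldehyde dehydrogenase, had slopes of -0.57 and -2.41, with p under 0.05 before adjustment. None was called with edgeR (0% of genes called higher), where 2031 of 16951 genes had an unadjusted p under 0.05, and DESeq2 was not run on these eyes. At P20 alone 33 of 45 targets were called higher (1.9% of all genes), with a median slope of 0.58. Without mouse 4 none of the 46 targets tested was called. Of these, 42 had a slope above 0, with a median of 0.71 over the 46, and 35 had a slope above 0 with an unadjusted p under 0.05. At P40 alone, where no eye stood so low in dose, 40 of 46 had a slope above 0 with a median of 0.44, and none was called higher (0% of all genes). 1 of the 46 had an unadjusted p under 0.05, against 4.87% of all genes, and it was *Aldh3a1*, with a slope of -2.68. Without P40 mouse 3, 21 of 46 had a slope above 0 with an unadjusted p under 0.05. Over all 9 P40 eyes the edgeR test called 0 of 13942 genes, with 679 at an unadjusted p under 0.05, and DESeq2 called 17. A test of the difference in slope between ages called 0 of 16744 genes with edgeR and 411 at an unadjusted p under 0.05, and DESeq2 was not run for it.

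**Figure D3:**
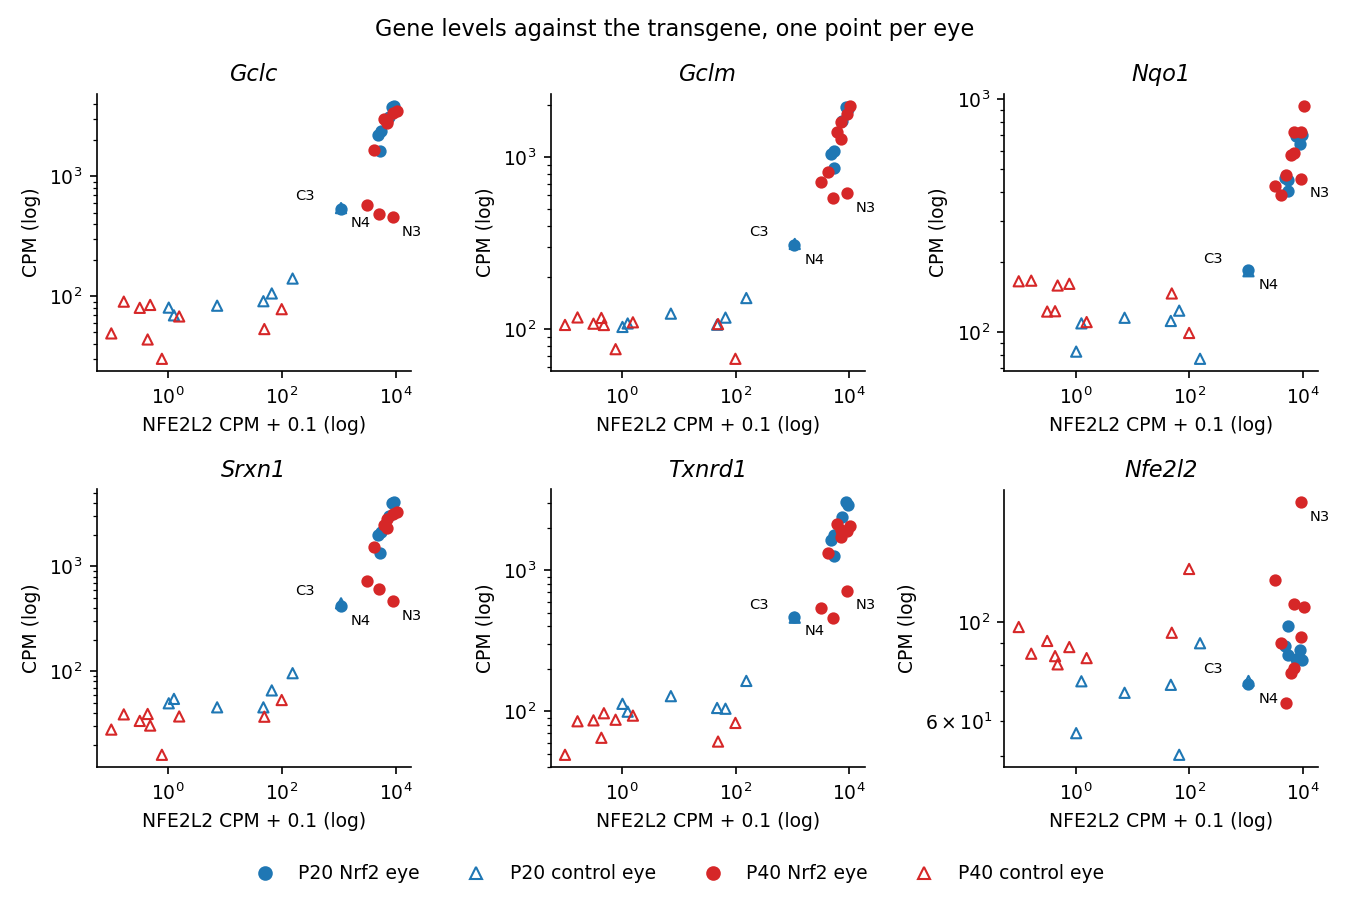
CPM of 5 NRF2 targets and *Nfe2l2* against CPM of the transgene (plus 0.1), both on log axes, with a point for each of 32 eyes: filled circles are Nrf2 eyes, open triangles control eyes, blue P20 and red P40. N4 and C3 are the libraries labelled P20 Nrf2 of mouse 4 and P20 control of mouse 3, which coincide at 1082 and 1098 CPM of transgene, and N3 is the Nrf2 eye of P40 mouse 3, low in targets for its transgene. The targets stay low over control eyes with up to 154.3 CPM of transgene and are higher over the Nrf2 eyes, and the *Nfe2l2* levels of both kinds of eye overlap.

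Slopes are given by the jobs of the targets, with group medians over the 16 Nrf2 eyes, and differences between these groups were not tested. Glutathione synthesis and cystine import had a median slope of 0.84 over 5 genes, 1 of them called, and the 3 efflux transporters had 0.78, none called. *Gclc* had a slope of 0.98 (SE 0.27, adjusted p = 0.164 with edgeR), *Gclm* of 0.84 (SE 0.15, adjusted p = 0.0335) and *Slc7a11* of 0.90 (SE 0.21, adjusted p = 0.101). The *Gclm* call held in 7 of the 16 sets that left out 1 eye, with slopes of 0.81 to 0.89.

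Quinone, carbonyl and aldehyde enzymes had a median of 0.56 over 8 genes, 3 of them called, and *Nqo1* a slope of 0.61 (SE 0.10, 95% CI 0.40 to 0.83, adjusted p = 0.0246). *Nqo1* lay at 184.3, 458.0 and 698.9 CPM (lowest, median and highest) in P20 Nrf2 eyes and at 388.8, 573.5 and 934.2 CPM in P40 Nrf2 eyes, against 76.9, 111.7 and 182.6 CPM and 99.2, 146.6 and 166.4 CPM in control eyes. Its highest control eye was thus just under its lowest Nrf2 eye, both being the libraries with 1082 and 1098 CPM of transgene. The *Nqo1* interval excluded a slope of 1 over 16 eyes and over 15 eyes (0.62, 95% CI 0.29 to 0.95), and its call held in 10 of the 16 sets that left out 1 eye.

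The thioredoxin system had a median of 0.57 over 6 genes, with *Srxn1* at 1.05 (SE 0.24) and *Txnrd1* at 0.86 (SE 0.20), both at an adjusted p of 0.0940. *Hmox1* had 0.94 (SE 0.23, adjusted p = 0.116) in a group of heme and iron genes with a median of 0.47. Glutathione transferases had a median of 0.51 over 9 genes, with *Gstm1* called, although reads of this near-identical family can be split between its members. Genes of NADPH supply had 0.50 over 6 genes, none called. *Txn1*, thioredoxin itself, had a slope of -0.07, and the pentose phosphate enzyme *Tkt* of -0.29, neither past the test.

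The Nrf2 eye of P40 mouse 3 departed from the others. It held 9144 CPM of transgene, the second highest at P40 after TMM scaling but the sixth as a share of its total counts (0.626%), with 459.5 CPM of *Gclc* and 464.4 CPM of *Srxn1*, the lowest of the 9 eyes for both, and with the highest *Nfe2l2*. The eyes of mice 6 and 8, with 5117 and 3205 CPM of transgene, were the next lowest for *Gclc* at 489.8 and 580.8 CPM. Without mouse 3 the slopes of *Gclc*, *Txnrd1*, *Srxn1*, *Slc7a11* and *Hmox1* over the remaining 15 eyes became 1.04, 0.91, 1.12, 0.96 and 1.01, all called with edgeR at adjusted p of 0.00284 to 0.0128, and 20 of 47 targets were called, in a setting that called 217 genes in all. *Rpe65*, the visual-cycle isomerase, which was lower in Nrf2 than in control eyes, was at 777.3 CPM in that eye, the highest of the 9 P40 Nrf2 eyes, against a median of 253.5 CPM. The cause was not tested.

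**Figure D4:**
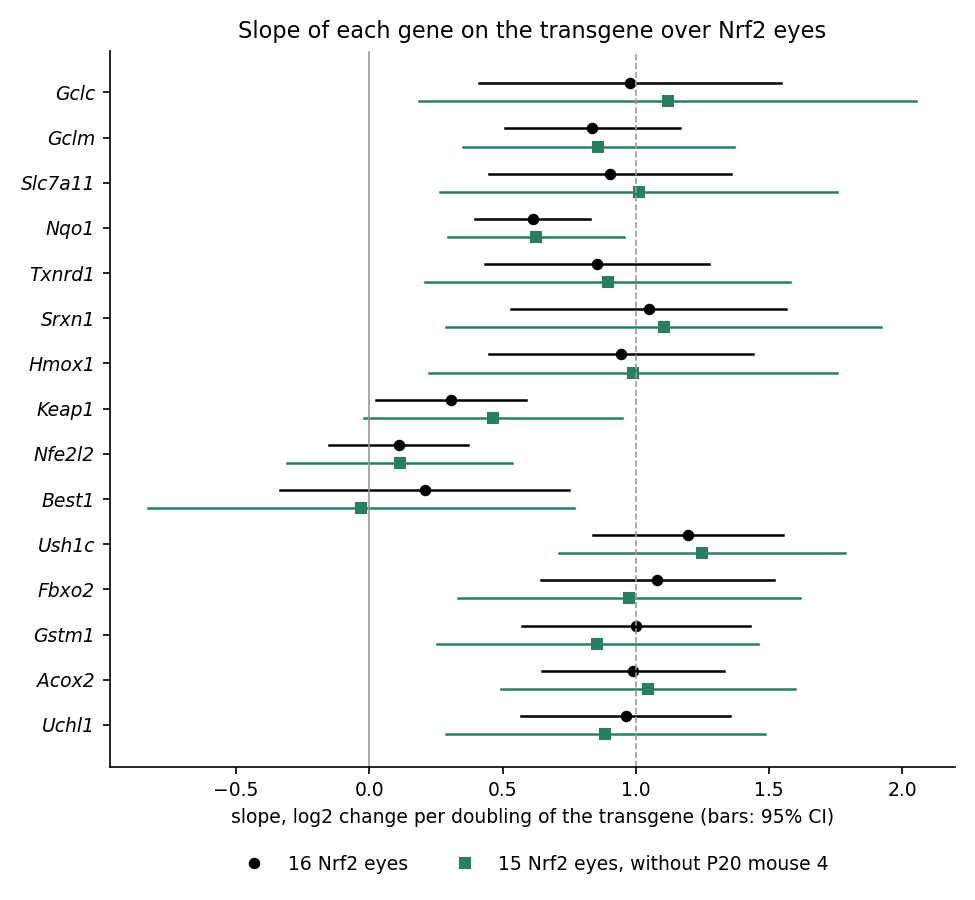
Slope of each named gene on the transgene, as log2 change for each doubling of the transgene, with 95% intervals from edgeR over 16 Nrf2 eyes (black circles) and over 15 eyes without P20 mouse 4 (green squares); the solid line marks no change and the dashed line a proportional change. *Nfe2l2* and *Best1* have intervals that include 0 and exclude 1, and *Nqo1* has one that excludes both.

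*KEAP1 and partners.* None of the listed genes that restrain NRF2 or act beside it was called with dose over all Nrf2 eyes. *Keap1* lay at 76.0, 119.5 and 152.7 CPM (lowest, median and highest) in P20 Nrf2 eyes against 56.3, 72.0 and 84.1 CPM in control eyes. It rose in Nrf2 eyes at P20 by 0.67 (SE 0.14, adjusted p = 0.0349), a call lost without any of mice 1, 2, 3, 5, 6 or 7. At P40 the difference was 0.66 (SE 0.19, adjusted p = 0.0804), and it passed with edgeR without mouse 6 (0.77, adjusted p = 0.0215) and with DESeq2 (adjusted p = 0.0183). Its slope on the transgene over all Nrf2 eyes was 0.31 (SE 0.13, adjusted p = 0.404 with edgeR). Over the 15 eyes without P20 mouse 4 the slope was 0.46 (95% CI -0.02 to 0.95, adjusted p = 0.436 with edgeR). It was 0.26 at P20 alone (adjusted p = 0.245 with edgeR) and 0.38 at P40 alone (adjusted p = 0.949 with edgeR). The P20 slope was called in 1 of the 7 sets that left out 1 mouse, that without mouse 2 (0.27, adjusted p = 0.0192 with edgeR).

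Of 10 genes for KEAP1 and degradation of NRF2, none was called with dose and the median slope was 0.04. Over the 15 eyes without P20 mouse 4 again none of the 10 was called. There *Palb2* had a slope of -1.21 (95% CI -2.37 to -0.05, adjusted p = 0.396 with edgeR), and the intervals of the other genes on this list included 0. Between the eyes 1 of the 10, *Keap1*, was called higher at P20 (2.93% of all genes) and 1 of the 10 lower at P40 (1.23% of all genes). The 4 CNC relatives had a median slope of -0.10 and the 5 small Maf and coactivator genes of -0.08, none called, and over the 15 eyes without P20 mouse 4 these were -0.40 and -0.23, again with none called. *Nfe2l1*, a CNC relative linked to proteasome genes, had a slope of 0.25 (SE 0.30) over 16 eyes and 1.02 (95% CI -0.08 to 2.12) over 15. Among targets that feed back on NRF2, *Bach1*, a repressor that competes for the same elements, had a slope of 0.27 (SE 0.10, adjusted p = 0.321).

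*The eyes at 1082 and 1098 CPM of transgene.* Both libraries at this intermediate level of transgene had intermediate target levels. If they hold mixed RNA or reads, the transgene and all targets would lie at the share of the mix by construction, so their positions do not by themselves describe a response to dose, and neither do slopes at P20 that rest on mouse 4. The position of each gene in these libraries was taken as the percent of the way from the median of the other P20 control eyes to that of the other P20 Nrf2 eyes, on the CPM scale. The transgene itself sat at 16.6% in the library labelled P20 control of mouse 3 and 16.4% in that labelled P20 Nrf2 of mouse 4, between medians of 27.2 and 6471 CPM. Over the 36 targets at least 2-fold apart between those medians, the median position was 17.8% (range 9.998% to 29.5%) and 16.9% (range 9.72% to 25.9%).

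In the library labelled P20 control of mouse 3, 32 of the 36 targets were above every other P20 control eye, and in that labelled P20 Nrf2 of mouse 4 all 36 were below every other P20 Nrf2 eye. *Gclc* was at 544.1 and 538.9 CPM, and *Nqo1* at 182.6 and 184.3 CPM. *Nfe2l2* was at 73.8 and 72.7 CPM, within the range of the other control eyes and below the lowest other P20 Nrf2 eye (82.05 CPM). Its positions were 19.8% and 11.9%, between medians of 70.9 and 85.6 CPM. The targets were chosen for their difference between other eyes, and the positions are given as a description.

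**Figure D5:**
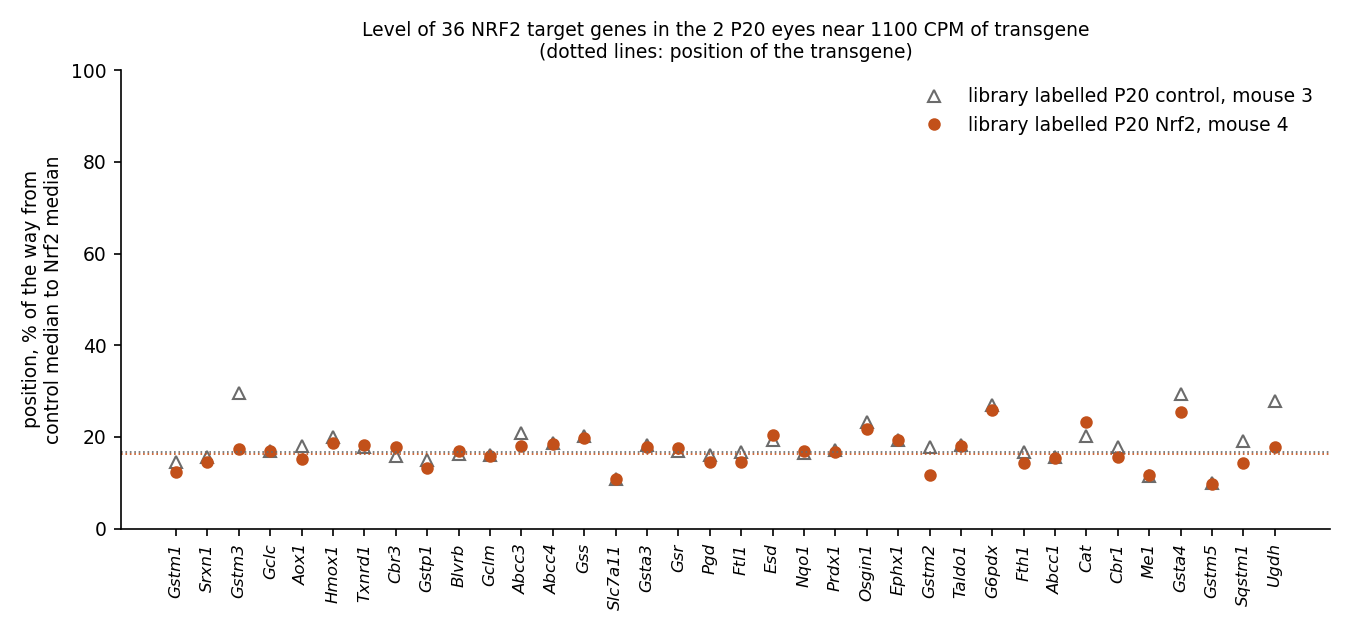
Position of 36 NRF2 targets, ordered by their ratio between Nrf2 and control medians, in the libraries labelled P20 control of mouse 3 (triangles) and P20 Nrf2 of mouse 4 (circles), on a scale where the median of the other control eyes is 0% and that of the other Nrf2 eyes is 100%. Dotted lines give the position of the transgene, 16.6% and 16.4%, and the targets scatter around them between 9.72% and 29.5%.

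*Transgene counts in control eyes.* Across the 16 control eyes the targets had small slopes on the transgene. The log2 CPM of the transgene ran from -4.12 at 0 counts, a value set by the prior count, to 10.1. Many of these eyes lay near the floor, where doublings are largely counting noise, so these slopes are not comparable with those over Nrf2 eyes. 35 of 45 had a slope above 0, with a median of 0.06 against -0.00 over all genes, and none was called with edgeR (0% of genes called higher), while 16 of the 45 had an unadjusted p under 0.05 against 8.85% of all genes. The edgeR test called 0 of 16831 genes there, with 1489 at an unadjusted p under 0.05, and DESeq2 called 19, 1 of them a target. Without P20 mouse 3 29 of 46 targets had a slope above 0 and 6 an unadjusted p under 0.05, with a median of 0.03, and the slopes of *Gclm* and *Nqo1* turned from 0.04 to -0.01 and from 0.01 to -0.03. The slope of *Nfe2l2* in control eyes was 0.03 (SE 0.02, 95% CI -0.01 to 0.07, adjusted p = 0.540 with edgeR).

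*All genes with dose.* Over the 16 Nrf2 eyes 48 genes rose and 2 fell with the transgene of 16744 tested with edgeR, and 1823 (10.9%) had p under 0.05 before adjustment. Of the 50, 42 met the rule for named genes. The steepest were *Ush1c*, the scaffold protein harmonin, with a slope of 1.196 (SE 0.17, adjusted p = 0.0135), *Fbxo2*, an F-box protein that binds glycoproteins, with 1.08 (SE 0.21, adjusted p = 0.0344), and *Gstm1*, a glutathione transferase, with 1.00 (SE 0.20, adjusted p = 0.0463). *Acox2*, a peroxisomal branched-chain acyl-CoA oxidase, had 0.99 (SE 0.16, adjusted p = 0.0246) and *Uchl1*, a ubiquitin hydrolase, 0.96 (SE 0.18, adjusted p = 0.0355).

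*Acox2* lay at 29.8, 137.9 and 223.1 CPM (lowest, median and highest) in P20 Nrf2 eyes and at 56.5, 190.2 and 269.1 CPM in P40 Nrf2 eyes, against 1.85, 2.73 and 31.6 CPM and 1.16, 3.30 and 4.93 CPM in control eyes. *Ush1c* was low by comparison with its own spread, at 1.84 to 31.8 CPM in P20 Nrf2 eyes and 0.646 to 2.63 CPM in P20 control eyes. Over the 15 eyes without P20 mouse 4 the slopes of these 5 genes in the order named were 1.25, 0.98, 0.86, 1.05 and 0.89, none called. The median slope of the 48 genes was 0.72 over 16 eyes and 0.76 over 15 eyes, all of which are among the eyes that chose the genes.

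The number of called genes depended on single eyes. It was 0 without P20 mouse 4, 2 to 6 without P20 mouse 1, 3, 6 or 7 or P40 mouse 4, 10 without P40 mouse 7, and 21 to 28 without P20 mouse 5 or P40 mouse 1 or 5. It was 217 without P40 mouse 3, of which 209 rose, and 76 without P40 mouse 8. At P20 alone 282 of 14110 genes were called with edgeR, 268 of them higher, and none without mouse 4, which sat alone at the low end of the dose.

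*Genes most like the members.* Likeness was Pearson's r of log2 CPM within groups, given as a description of libraries that share eyes, over 11793 genes with a mean log2 CPM of at least 2. Over the 16 Nrf2 eyes the transgene was most like *Rom1* (r = 0.9503), *Vps50* (0.946), *Cntnap2* (0.934), *Ddit4l* (0.933) and *Gstm7* (0.926), against a median of 0.028 over all these genes. Over the 15 eyes without P20 mouse 4 the values were 0.875, 0.846, 0.843, 0.844 and 0.833, which ranked 4, 18, 21, 20 and 27, so this order rested on that eye. *Rom1*, which encodes a photoreceptor disc protein, had a slope of 0.75 (SE 0.10, adjusted p = 0.00703 with edgeR).

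Over all 32 eyes *Nfe2l2* was most like *Ankrd49* (r = 0.819), *Msl3* (0.815), *Oxct1* (0.786), *Nmd3* (0.785) and *Dnajc24* (0.779), against a median of -0.046. *Oxct1* makes ketone bodies usable as fuel, *Nmd3* exports the large ribosomal subunit, and *Msl3* is a chromatin protein. Without the Nrf2 eye of P40 mouse 3, the highest in *Nfe2l2*, the values were 0.719, 0.684, 0.638, 0.762 and 0.720, which ranked 41, 83, 189, 12 and 40, so this order rested on that eye. Without the eyes of P20 mice 3 and 4 they were 0.820, 0.821, 0.835, 0.783 and 0.791. No NRF2 target was among the 5 most like either *NFE2L2* or *Nfe2l2* apart from the glutathione transferase *Gstm7*, which belongs to the family but was not on the target list.

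*Cell type markers beside dose.* No marker list had a gene called with transgene dose over the 16 Nrf2 eyes. Median slopes were 0.15 for RPE markers, with 10 of 12 above 0, -0.59 for cone, -0.24 for rod and 0.01 for macrophage markers. Over the 15 eyes without P20 mouse 4 they were 0.29, -1.56, -0.87 and 0.10 in the same order, with 1 of 12, 3 of 8, 2 of 7 and 0 of 11 genes at an unadjusted p under 0.05 and again none called with edgeR. *Rpe65* had a slope of -0.42 (SE 0.21, adjusted p = 0.497 with edgeR), -0.63 at P20 and 0.31 at P40, and over the 15 eyes without P20 mouse 4 it turned to 0.39 (95% CI -0.37 to 1.15).

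Between eyes markers did move with the vector. The P20 values here include mice 3 and 4, and marker values from the fit without these mice are not given. *Rpe65* fell by 2.17 at P20 (adjusted p = 0.0198) and by 2.82 at P40 (adjusted p = 0.000281), and 5 of 12 RPE markers were called lower at P40 (1.23% of all genes were called lower), while the summed RPE level ran from 13410 to 72320 CPM in P40 Nrf2 eyes and from 11850 to 70140 CPM in P40 control eyes, with medians of 21290 and 37740 CPM. Cone markers were lower in all 8 genes at P40, with summed levels of 29.3 to 241.6 CPM in Nrf2 eyes and 268.3 to 2066 CPM in control eyes, and 2 of 8 were called lower at P20 (0.485% of all genes). Rod markers had summed medians of 10.7 and 105.1 CPM in P20 Nrf2 and control eyes and of 14.5 and 165.5 CPM at P40, with none of 8 called at P20 and 2 of 7 called lower at P40. Macrophage markers were called higher in 6 of 11 at P40 (3.33% of all genes), with summed medians of 362.3 CPM in Nrf2 and 216.4 CPM in control eyes, and in none of 11 at P20, with 253.8 and 326.7 CPM. The part of these shifts in the target levels was not tested. With the mean of the RPE markers added to the dose fit over the 16 Nrf2 eyes, 44 of 47 targets had a slope above 0, with a median of 0.56, and rod, cone and macrophage markers were not added to any fit.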

How the data were processed

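RPE RNA of 32 eyes was measured by RNA-seq after amplification. The authors aligned reads to mm10 with STAR and counted with featureCounts, and for expression tests they used estimated counts from Salmon (0.9.1 in the submitters' processing notes), imported with tximport. The deposited table holds whole-number expected counts per gene and does not name its counter. Libraries were run on 2 sequencing runs that the labels do not assign to samples, so a run effect could not be checked. All P20 sample titles start with M and all P40 titles with A, and what these letters stand for is not given. A difference between these series of libraries thus cannot be told apart from age. How reads of the human cDNA and of mouse *Nfe2l2* were told apart is not given in the sources used here.

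The deposited counts were analysed in R (version 4.3.3), using edgeR (4.0.16), DESeq2 (1.42.0) and limma (3.58.1). Low genes were removed with filterByExpr, libraries were scaled with TMM, and genes were tested with edgeR's quasi-likelihood F test with Benjamini-Hochberg adjustment over all genes tested and a threshold of 0.05. CPM used TMM-scaled library sizes, and log2 CPM used a prior count of 2. Nrf2 and control eyes were compared within an age with mouse as block, since both eyes came from one animal. Checked over genes, deviations from the group mean correlated between the paired eyes at -0.273 to 0.270 (median 0.051) at P20 and at -0.352 to 0.618 (median 0.005) at P40. Dose slopes were fitted on log2 transgene CPM with a term for age, leaving the row NFE2L2 out of the genes tested, and transgene CPM and gene CPM share each library's scaling factor. Single values were tested by exact permutation, or with 100000 resamples over 16 eyes, in Python 3.11.15 with SciPy 1.17.1. Depth was 16548332 to 50542797 counts a library, and floors of 3 counts cover counting error only, as no molecular identifiers are described. The fits were also run on simulated counts, with the same dispersion for all genes and no correlation between paired eyes. The outcomes are not given here, and that setting does not bear on calls that hinge on single eyes.

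Named genes were *NFE2L2*, *Nfe2l2*, *Best1*, 7 targets and *Keap1*, the 5 steepest called genes in each direction with a mean log2 CPM of at least 2 and 1 sign at both ages (none of the falling genes met this), the 5 genes most like each member, and from each list up to 3 genes with the largest slope and 1 with the smallest. *Ephx1* and *Txn1* were named after their values were seen. The members and the gene lists were chosen with earlier results of these data known. Alternatives were RLE scaling, DESeq2, other count filters, no block or the replicate block, linear dose, RPE markers in the fit, no age term and leaving out each mouse or eye. Sequences and windows are from RefSeq (GRCm38.p6), and the human cDNA sequence was not used here.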

Additional observations from a re-analysis of the deposited data

Results flagged for a closer look

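A highest or lowest sample far from the rest of its group was looked for in 64 groups of values, 16 genes in 4 groups. The cut is set for normal values, where chance marks about 1 in 20 such groups. CPM values can be skewed, so that rate need not hold, and the genes share eyes, so marks in 1 library are not independent. In all, 12 groups were marked, 9 of them in the library labelled P20 control of mouse 3. There *NFE2L2* was at 1098 CPM against 154.3 CPM in the next control eye, *Gclc* at 544.1 against 140.6, *Gclm* at 313.3 against 151.9, *Txnrd1* at 461.0 against 164.3, *Srxn1* at 444.2 against 95.9, and *Hmox1* at 188.0 against 41.3. *Fbxo2* was at 77.1 CPM against 20.01, *Gstm1* at 871.3 against 171.4, and *Acox2* at 31.6 against 6.24. The cause was not tested.

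The control eye of P40 mouse 8 was the highest of 9 for *NFE2L2*, at 99.2 CPM against 49.1 in the next, and for *Nfe2l2*, at 131.6 CPM against 97.5. Its library was the smallest at P40, with 17721493 counts. The Nrf2 eye of P40 mouse 3 was the highest of 9 for *Nfe2l2*, at 185.8 CPM against 124.3 CPM. Among the 16 genes, none passed the test for a difference of its Nrf2 effect or dose slope between ages.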

How the results depend on the processing

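The dose slope of *Nfe2l2* over 16 eyes stayed above 0 and uncalled in all 26 alternatives. Counts of called genes moved most. With DESeq2 they were 1951 (Nrf2 effect at P20, against 556), 1380 (P40, against 762), 4372 (age in control eyes, against 2483), 680 (dose over 16 eyes, against 50), 1031 (dose at P20, against 282), 17 (dose at P40, against 0) and 19 (dose in control eyes, against 0). With no filter on low counts they were 348, 914 and 4 for the P20 effect, age in control eyes and dose over 16 eyes. Dose over 16 eyes gave 9 genes on a linear dose scale, 81 with RPE markers in the fit, and 27 without an age term. Without P20 mice 3 and 4, an alternative added for the age comparison after the data were seen, dose gave 0 genes and age in control eyes 158.

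Without the pairing of eyes (no replicate block) the P20 effect gave 1093 genes and *NFE2L2* a difference of 4.91, past the threshold, as it also was with DESeq2 (7.42) and without P20 mice 3 and 4 (9.60). With the replicate block in the dose fit (limma), 1 gene was called and the *Best1* slope reversed to -0.12. No other call of *NFE2L2* or *Nfe2l2* changed with the block.

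Leaving out single mice or eyes gave 111 (mouse 7) to 1999 (mouse 4) genes for the P20 effect, 521 to 997 for P40, 473 (P20 mouse 5) to 4273 (P40 mouse 1) for age in control eyes, 0 (P20 mouse 4) to 217 (P40 mouse 3) for dose over 16 eyes and 0 (mouse 4) to 658 (mouse 2) for dose at P20. *NFE2L2* at P20 ranged from 6.35 to 8.50. *Nfe2l2* for age in control eyes ranged from 0.38 to 0.52, and was 0.37 with no filter and 0.38 without P20 mice 3 and 4, below the threshold in both.

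Directions turned for *Nfe2l2* in the P40 effect (-0.011 to 0.12, without mouse 3), dose at P20 (-0.17 to 0.080, without mouse 4) and dose at P40 (-0.10 to 0.59, without mouse 3), and for *NFE2L2* with age in Nrf2 eyes (-0.023 to 0.34, without P20 mouse 4). *Best1* turned in the P20 effect (-0.38 to 0.070, without mouse 2) and in the dose slope (-0.031 to 0.32, without P20 mouse 4, and -0.047 without P20 mice 3 and 4). In control eyes the slope of *Gclm* (-0.0122 to 0.0741) turned without P20 mouse 3, and that of *Nqo1* (-0.0270 to 0.0273) without P20 mouse 3 and, at -0.00685, without P20 mouse 1. Causes of these shifts were not tested. Transgene counts were few in control eyes at P40, where 7 of 9 eyes held 58 or fewer. They were also few in the P20 control eyes of mice 1 and 6, with 46 and 28 counts.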
